A study of Mus musculus with 48 samples.

Results

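The subunits of the mitochondrial respiratory chain and of ATP synthase were followed in mouse liver through 48 consecutive hours. Members were all genes whose symbol in the array's annotation begins with Ndufa, Ndufb, Ndufc, Ndufs, Ndufv, Uqcr, Cox4 to Cox8 or Atp5, together with Sdha, Sdhb, Sdhc, Sdhd and Cyc1 and without the Ndufaf assembly factors, which gave 83 of the 18194 genes with a probe set of their own. Each gene was represented by its brightest probe set, and the members fell into complex I (36 genes), complex II (4), complex III (9), complex IV (17) and complex V (17). The livers came from male C57BL/6J mice, 6 weeks old, that had spent a week under equal spans of light and dark (12 h each) and were then moved to complete darkness. Every hour from CT18 to CT65 (CT, circadian time, hours counted from the start of the subjective day) 3 to 5 mice were killed in the dark and their livers were pooled, and each pool was measured on 1 Affymetrix mouse expression array with 45101 probe sets. All pools are of 1 group (untreated wild-type liver), no hour has a second array within a cycle, and the spread that enters every test is that of the pools around a fitted curve.

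The chain passes electrons from NADH (complex I) and succinate (complex II) through ubiquinone to complex III, then through cytochrome c to complex IV, cytochrome c oxidase, which reduces oxygen. Complexes I, III and IV pump protons across the inner mitochondrial membrane, and complex V, ATP synthase, uses the gradient to make ATP. All members are encoded in the nucleus, and liver cells hold many mitochondria. Several subunits of complex IV have a second gene whose product is used in heart and skeletal muscle, such as Cox6a2, Cox7a1 and Cox8b in place of Cox6a1, Cox7a2 and Cox8a. By name 3 members stand apart from their group: Ndufa4 is known to belong to complex IV, Cox7a2l helps to join complexes into supercomplexes, and Ndufab1 is the mitochondrial acyl carrier protein.

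Of the 83 members, 72 had a mean intensity of at least 1000 over the 48 pools (called bright here), and the lowest of these means was 15680, for Cox8a. A further 7 members had means under 100 (Cox4i2, Cox6a2, Cox6b2, Cox7b2, Cox8c, Ndufa4l2 and Ndufb4), and Cox7a1, Cox7c, Ndufb1 and Cox8b lay between 100 and 1000. Levels of different probe sets are not on a common scale and were not compared. For Ndufb4 a probe set that also lists Ndufb4b and Ndufb4c had a mean of 77270, and probe sets with several symbols for Ndufs5, Ndufs6 and Ndufa11 were likewise bright. They were not used, since the rule takes probe sets with a single symbol, and Ndufb4 is represented here by a dim probe set.

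Nuclear genes of the chain are known targets of the transcription factors NRF1 and GABPA (an ETS factor), and for this reason the sequences before the transcription start were searched. RefSeq promoters on GRCm38.p6, 250 bases before to 50 bases after the start, matched 67 of the 83 members, and a gene counted as holding a motif if any of its listed promoters did, on either strand. The NRF1 letters GCGCANGCG occurred in 18 of 67 members (26.9%) beside 9.63% of 17491 protein-coding genes. The ETS letters CCGGAAG occurred in 17 members (25.4%, beside 12.9%), and YY1 letters AANATGGCG in 9 (13.4%, beside 3.64%). The Sp1 letters GGGCGG, part of many GC-rich promoters, occurred in 29 members (43.3%, beside 49.2%). Among motifs of clock-controlled genes, the E-box CACGTG was in 6 (8.96%, beside 8.91%), the ROR element TAGGTCA in 2 (2.99%, beside 2.70%) and the D-box TTATGTAA in 0 (beside 1.05%). The letters of the estrogen-related receptor, TCAAGGTCA, were in 2 members (2.99%, beside 0.377%); they end in the same letters as the ROR element, but neither motif contains the other. These shares are descriptions of letters in a window and were not tested.

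The bases just before the start are shown for 5 members to which the results return, on the strand of the gene and ending at the base before the start, with NRF1 and ETS matches in capitals. Sdhd had the largest 24 h component among the bright members, Sdha changed its course between the cycles, Ndufv2 had the next smallest p, and Cox6a1 and Cox7a1 are a liver form and a muscle form of complex IV subunits. The runs for Sdhd (chr9:50603850-50603900, minus strand) and Sdha (chr13:74350241-74350316, minus strand) stop where the span of the next gene begins, Timm8b and Ccdc127. The others are Ndufv2 (chr17:66101560-66101759, minus strand), Cox6a1 (chr5:115348959-115349158, minus strand) and Cox7a1 (chr7:30183971-30184170, plus strand).
Sdhd: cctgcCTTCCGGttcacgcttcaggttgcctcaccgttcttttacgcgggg
Sdha: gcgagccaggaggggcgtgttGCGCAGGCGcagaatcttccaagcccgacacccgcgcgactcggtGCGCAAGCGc
Ndufv2: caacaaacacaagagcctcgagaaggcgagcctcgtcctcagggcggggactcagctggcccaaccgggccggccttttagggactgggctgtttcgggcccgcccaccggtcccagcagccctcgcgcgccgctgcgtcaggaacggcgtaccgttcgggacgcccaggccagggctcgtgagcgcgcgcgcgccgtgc
Cox6a1: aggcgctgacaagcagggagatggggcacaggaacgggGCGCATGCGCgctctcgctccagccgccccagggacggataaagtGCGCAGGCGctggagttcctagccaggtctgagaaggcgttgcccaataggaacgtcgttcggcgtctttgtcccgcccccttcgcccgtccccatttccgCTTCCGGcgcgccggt
Cox7a1: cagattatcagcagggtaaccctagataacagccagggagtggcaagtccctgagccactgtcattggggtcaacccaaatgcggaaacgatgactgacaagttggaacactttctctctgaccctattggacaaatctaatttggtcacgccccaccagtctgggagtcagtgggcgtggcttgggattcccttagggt

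Cox6a1 held 3 NRF1 matches, of which 2 overlap on opposite strands, and an ETS match close to the start. Cox7a1 held none of the 8 motifs in the run shown, and Ndufv2 held only Sp1 letters. Sdhd and Sdha share their upstream bases with a neighbour, as did 18 of the 67 matched members (26.9%), whose 250 bases before the start overlap another protein-coding gene, beside 12.2% of all genes. NRF1 letters stood in 10 of the 41 matched members with a 24 h component (24.4%) and ETS letters in 13 (31.7%).

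The main comparison asked which members cycled with a period length near 24 h. A gene was called when both Fisher's G-test and a cosine fit reached a q-value under 0.05, and its class followed the period of the cosine fit (20 to 30 h for the 24 h class). In the 24 h class 10 members were called, or 12.05% of 83, beside 14.2% of all genes, 31.5% of the 6636 genes of mean at least 1000 and 34.3% of the 1555 genes at least as bright as Cox8a. All 10 were bright, so that 13.89% of the bright members were called. They were Sdhd, a small membrane anchor of complex II; Ndufv2, Ndufv3, Ndufs3, Ndufs4, Ndufs8 and Ndufa9 of complex I; Cox4i1 and Cox7a2l of the complex IV group; and Atp5g1, a gene for the c subunit of the ATP synthase rotor. For Ndufs3 and Cox4i1 the strongest Fourier frequency was that of 48 h, the length of the whole series.

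Sdhd ranged from 31605 at CT27 through a median of 51436 to 63537 at CT61. It was high in the subjective night of both cycles, with 57819 to 61578 from CT18 to CT22 and 62599 at CT44, and low at CT26, CT27 and CT31 (38303, 31605 and 34429). A model of a straight-line trend plus cosine waves of 24, 12 and 8 h was fitted by limma, in which its 24 h amplitude was 0.19 ± 0.028 on the log2 scale (fitted coefficient ± SE, 48 pools), a peak to trough ratio of 1.31, with the peak at CT18.1 ± 0.61 and an adjusted p of 4.5e-06. Amplitude here is the distance from the mean to the peak.

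Ndufv2, an iron-sulfur subunit of the NADH-oxidizing arm of complex I, ranged from 69176 at CT33 through a median of 86871 to 118940 at CT61. Its amplitude was 0.15 ± 0.023 with a peak at CT17.2 and an adjusted p of 1.09e-05 (limma). Ndufs4, an accessory subunit needed for a stable complex I, ranged from 20224 at CT31 to 40918 at CT61 with a median of 24398, and had an amplitude of 0.16 ± 0.033 with a peak at CT15.7 (adjusted p = 0.000892). The lowest pools of these complex I genes, CT33 and CT31, lay in the subjective day of the first cycle, and the highest was CT61 in both.

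Ndufs8, another iron-sulfur subunit, ranged from 126760 at CT33 through 158360 to 203160 at CT62, with an amplitude of 0.12 ± 0.022 and a peak at CT16.9 (adjusted p = 0.000239). Atp5g1 ranged from 46678 at CT60 through 59874 to 73213 at CT20, with an amplitude of 0.13 ± 0.022 and a peak at CT18.6 (adjusted p = 4.48e-05). Ndufa9 had an amplitude of 0.098 ± 0.018 and a peak at CT18.8 (adjusted p = 0.000184). The other c-subunit genes were flatter: Atp5g2 had an amplitude of 0.079 ± 0.025 (adjusted p = 0.0272) and Atp5g3 0.017 ± 0.010 (adjusted p = 0.326).

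**Figure D1:**
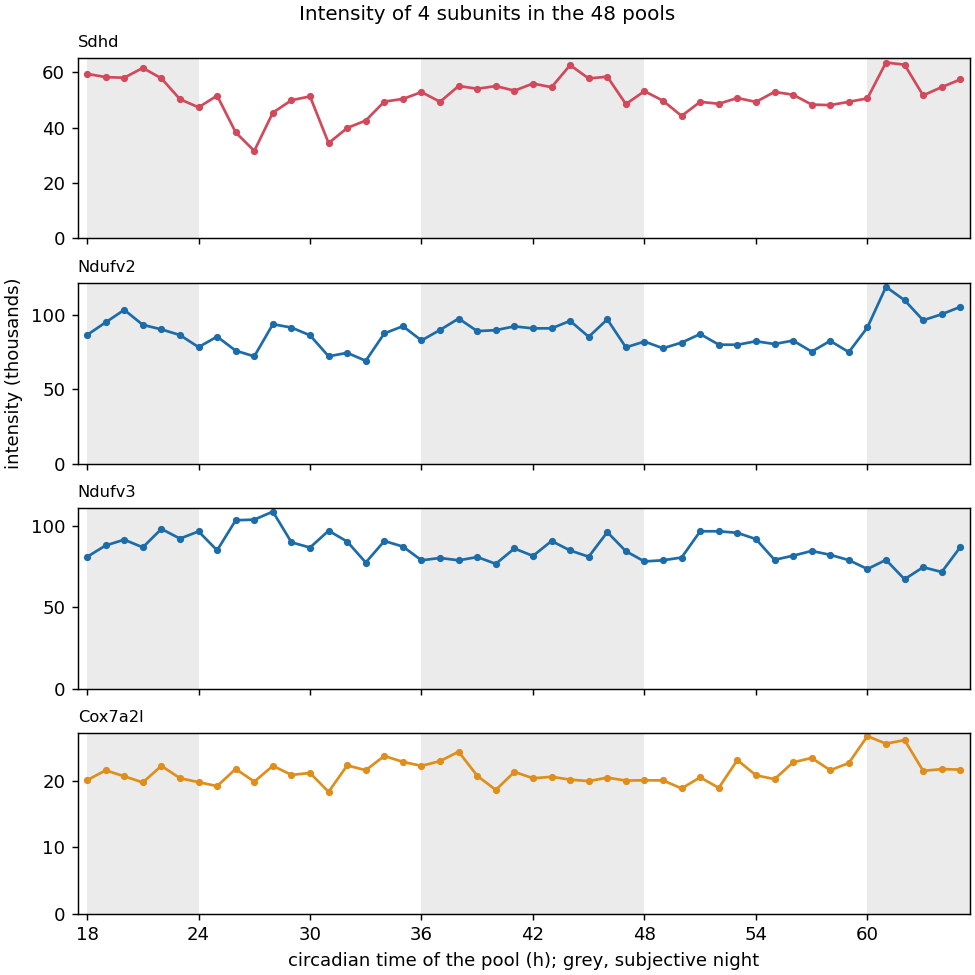
Intensity (divided by 1000, linear axis from 0) of Sdhd, Ndufv2, Ndufv3 and Cox7a2l in each of the 48 pools against circadian time, 1 point per pool, with grey bands for the subjective night. The highest pools of Sdhd and Ndufv2 lay in the grey bands, Ndufv3 was high early in the subjective day (fitted peak CT2.8) and Cox7a2l near the change from day to night (CT11.9).

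Other members peaked at another time of day. Ndufv3, an accessory subunit beside Ndufv2 in the same arm, ranged from 67250 at CT62 through 84986 to 108820 at CT28 and had its fitted peak at CT2.8, with an amplitude of 0.11 ± 0.021 (adjusted p = 0.000202). Cox7a2l ranged from 18340 at CT31 through 21037 to 26730 at CT60, with a peak at CT11.9 and an amplitude of 0.10 ± 0.020 (adjusted p = 0.00044). Cox6a1, Cox5b and Ndufb7 peaked at CT2.5, CT2.7 and CT3.8, Cox4i1 and Cox7c at CT8.4 and CT8.2, and Ndufs3 at CT12.2. These are peaks of the main probe sets. By limma no other bright probe set passed for Cox6a1 (adjusted p = 0.37), Cox5b (0.055, 0.13 and 0.215) or Ndufb7 (0.597). The other bright probe sets of Cox7a2l passed, with peaks at CT13.77 and CT13.45.

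Between the cycles, the fitted peaks of 9 of the 10 members called by both tests lay within 4 h of each other, and the largest gap was 6.83 h, for Ndufs3. These members were called on both cycles together, which in part selects for peaks that lie close. Sdhd peaked at CT17.7 in the first cycle and CT17.1 in the second, and Ndufv3 at CT2.2 in both.

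By limma alone, which tests the 24 h component at its fixed period, 47 of 83 members passed an adjusted p of 0.05 (56.6%), beside 52.7% of all genes, 69.7% of genes of mean at least 1000 and 71.3% of those as bright as Cox8a. The amplitudes of the bright members were small, with a median of 0.065 and a range of 0.010 to 0.19, beside a median of 0.15 in genes of mean at least 1000. As peak to trough ratios these medians were 1.095 and 1.235. Without the last 6 pools (CT60 to CT65) 28 members passed, 23 of them among the 47, beside 61.3% of genes of mean at least 1000. In the first cycle alone 6 passed, 5 of them among the 47, beside 25.1%, and in the second cycle alone 41 passed, 29 of them among the 47, beside 56.5%. Named members that did not pass without those pools included Ndufs4 (adjusted p = 0.0708), Cox6a1 (0.0625), Sdhb (0.122), Atp5c1 (0.137), Uqcr10 (0.227), Atp5md (0.241) and Cox7a2 (0.462). For scale, the clock genes Dbp and Arntl had amplitudes of 3.85 and 2.63 in the same pools.

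The peaks of the called members stood close together. Of the 47, 39 (83.0%) had their peak from CT15 to CT22, in the subjective night, beside 23.6% of the called genes of mean at least 1000 and 32.9% of those as bright as Cox8a. The bounds of this window were not set in the planned tests. They may follow the members' own peaks, which would favor the members' share, and the difference in shares was not tested. Dim probe sets also shared this window: of the 3284 called genes of mean under 100, 97.0% peaked in it, with a median amplitude of 0.022, and the dim members that passed (Cox4i2, Cox7b2 and Cox8c) never exceeded 65.8 in any pool. After quantile normalization of the arrays 196 dim genes were called with 55.6% in the window, and 37 members with 28 in it (75.7%). In 28 of the 39 members the peak fell in the window in each cycle taken alone. The 39 were chosen by their peak over both cycles, so this count is partly fixed by the choice.

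Markers of other liver cells were also read for this window. Of 8 measured markers of Kupffer cells, the resident macrophages, 5 had a 24 h component in limma (Adgre1, C1qa, C1qb, Clec4f and Vsig4), and all 5 peaked from CT18.3 (C1qb) to CT21.3 (Clec4f). The summed intensity of the 8 ranged from 36933 to 86697. Of 6 endothelial markers 5 passed, of which Lyve1 (CT18.0) and Clec4g (CT19.8) peaked in the window and Cdh5, Kdr and Stab2 between CT4.1 and CT4.6, and the summed intensity was 19786 to 31552. Of 7 stellate cell markers 5 passed, with Lrat (CT19.9) and Dcn (CT20.7) in the window and Pdgfrb, Col3a1 and Reln between CT3.5 and CT5.0, and the summed intensity was 60726 to 90340. All markers of these 3 lists exceeded 100 in at least 1 pool. Clec4g, Lyve1, Adgre1, C1qa, C1qb, Cd68 and Vsig4 were lowest at CT27, as Sdhd was. By contrast, Col3a1, Pdgfrb and Reln were highest at CT27. Cdh5, Kdr, Stab2, Csf1r and Reln were lowest at CT61, and the rest of the 3 lists in other pools. The part of these cells in the members' 24 h components was not tested.

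**Figure D2:**
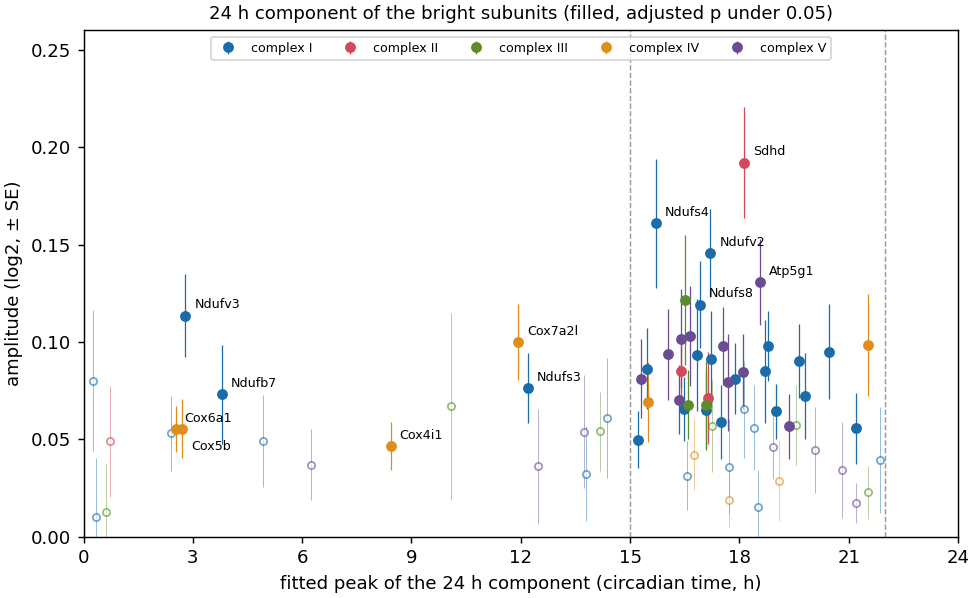
Amplitude (log2, ± SE) against the fitted peak time of the 24 h component for the 72 bright members, colored by complex, with filled points for adjusted p under 0.05 and dashed lines at CT15 and CT22. Of the 43 filled points, 36 lie between the lines, and Sdhd has the largest amplitude, 0.19.

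Peak times were also read by complex. All called members of complexes II (3 of 4), III (3 of 9) and V (10 of 17) peaked from CT15 to CT22, and so did 18 of the 21 called members of complex I (of 36). In complex IV 10 of 17 members were called, but of its 6 called bright members only Cox7a2 (CT15.5) and Cox8a (CT21.5) peaked in that window. Of the 9 bright members of complex IV, 6 were called (66.7%), against 21 of 33 in complex I. The differences between complexes were not tested. The other members that passed in the window included Ndufa1, Ndufa3, Ndufa7, Ndufa12 and Ndufb8 of complex I and Atp5c1, Atp5h, Atp5j, Atp5j2, Atp5mpl and Atp5o of ATP synthase, while Ndufa5, Ndufa6, Ndufb3, Ndufb9, Ndufc1, Ndufs7, Uqcrb, Uqcrh and Cox6c were among the bright members that did not pass. These are calls of the main probe sets. By limma another bright probe set passed for Ndufb9 (adjusted p = 8e-05), Uqcrb (9.8e-05), Ndufc1 (0.0026), Ndufa5 (0.0048) and Uqcrh (0.0079). For Ndufs7 and Cox6c the other bright probe set did not pass either.

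Averaged over its members, complex V had a 24 h amplitude of 0.057 ± 0.011 (SE over 48 pools) with a peak at CT17.2, complex I 0.043 ± 0.011 at CT18.1, complex III 0.043 ± 0.0094 at CT16.5 and complex II 0.082 ± 0.017 at CT18.1. Complex IV had 0.030 ± 0.026 at CT9.2, which became 0.010 ± 0.0074 when only its 9 bright members were averaged and 0.031 ± 0.0097 at CT13.1 without CT28, a pool with raised muscle forms described further on. The complex II mean depended on a few pools: without the 8 pools of highest 3' to 5' control difference, also described further on, it was 0.038 ± 0.010.

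**Figure D3:**
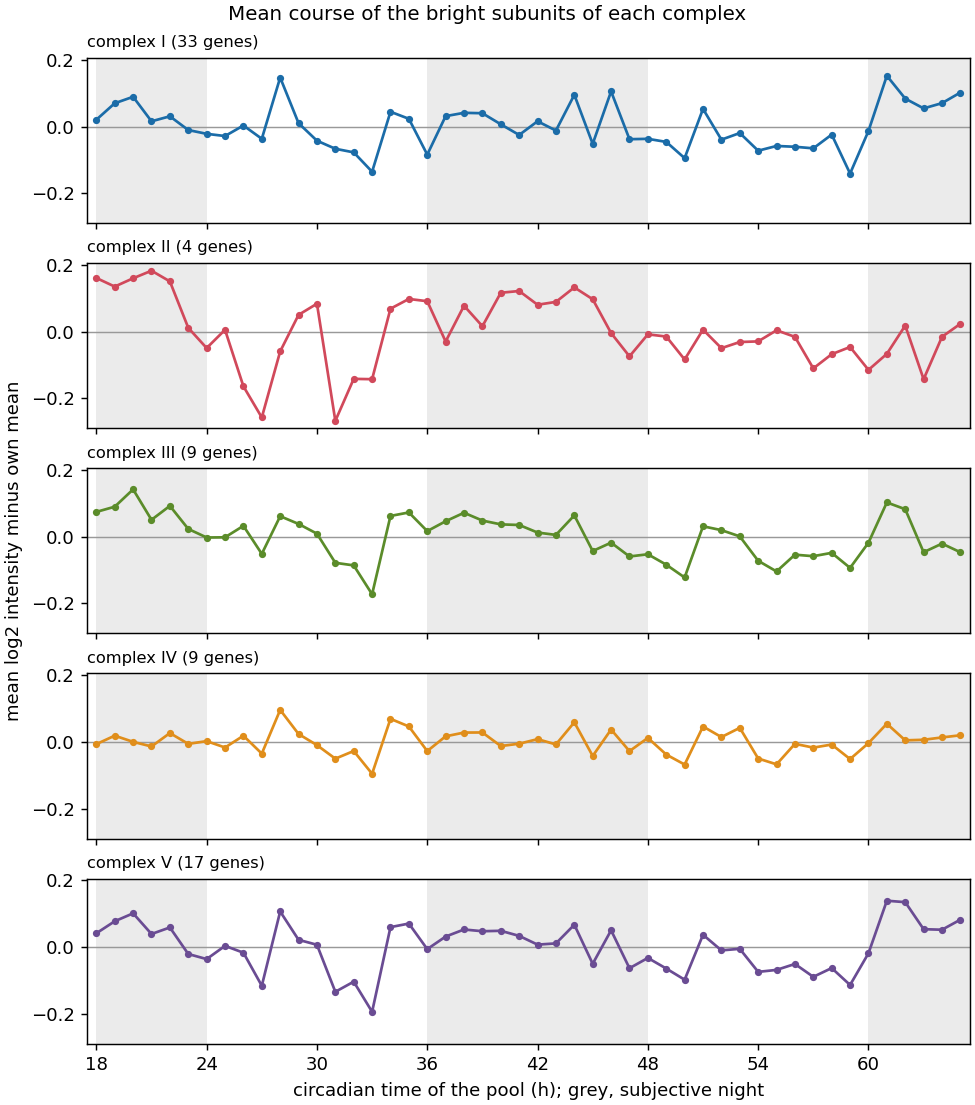
Mean course of the bright members of each complex, as the mean log2 intensity minus each gene's own mean (y axis) in the 48 pools (x axis, circadian time; grey, subjective night). Complexes I, III and V dipped together at CT33 and rose at CT61, complex II dipped at CT27 and CT31, and complex IV stayed closest to 0.

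Within complex II, Sdhb, the iron-sulfur subunit, had an amplitude of 0.085 ± 0.020 with a peak at CT16.4 (adjusted p = 0.00306), and Sdhc, the other membrane anchor, 0.071 ± 0.024 at CT17.1 (adjusted p = 0.0397). Sdha, the catalytic flavoprotein, had 0.049 ± 0.028 (adjusted p = 0.309) by its main probe set. Its other bright probe set passed, with 0.12 ± 0.029 at CT5.0 (limma adjusted p = 0.0054). In complex III, Uqcrfs1, the Rieske iron-sulfur protein, had 0.068 ± 0.018 at CT16.6 (adjusted p = 0.00916) and Uqcr10, a small accessory subunit, 0.12 ± 0.033 at CT16.5 (adjusted p = 0.0125), while Cyc1, cytochrome c1, had 0.054 ± 0.020 (adjusted p = 0.0736). The catalytic core of ATP synthase did not pass by its main probe sets: Atp5a1 had 0.034 ± 0.025 (adjusted p = 0.459) and Atp5b 0.044 ± 0.022 (adjusted p = 0.207). A weaker probe set of Atp5a1 (mean 2481) had 0.13 ± 0.038 at CT9.3 (limma adjusted p = 0.018), and a brighter one (mean 121900) did not pass (0.167). In complex I, Ndufs1 passed with 0.065 ± 0.016 (adjusted p = 0.00683) and Ndufv1 had 0.049 ± 0.024 (adjusted p = 0.187). Atp5l, a membrane subunit of ATP synthase, passed with 0.098 ± 0.020 at CT17.5 (adjusted p = 0.000762). In complex IV, Cox5a had an amplitude of 0.029 ± 0.021 (adjusted p = 0.466) and Cox6b1 0.019 ± 0.013 (adjusted p = 0.465). Ndufa4, the complex IV subunit that carries a complex I name, ranged from 87432 at CT33 through 107870 to 144130 at CT61 and passed with 0.072 ± 0.022 at CT19.8 (adjusted p = 0.0241).

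Some pools moved many members at once. At CT59, 67 of the 72 bright members were below their own median, at CT33 61, at CT57 60 and at CT32 59, while at CT19 and CT20 only 10 were. In the same 4 low pools between 46.8% and 54.05% of all genes of mean at least 1000 were below their median. CT33 was the lowest pool of 18 members.

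The array carries control probe sets at the 3' and 5' ends of a few transcripts, whose log2 difference grows when RNA is shortened. For beta-actin it ranged from 1.29 at CT25 to 2.82 at CT60, and the 8 highest pools were CT60, CT27, CT31, CT28, CT26, CT32, CT33 and CT57. The 3 lowest pools of Sdhd (CT26, CT27 and CT31) and the lowest of Atp5g1 (CT60) are among these 8. The fitted 24 h peak of the beta-actin difference was at CT9.1, and those of the Gapdh, Pcx and Tfrc differences were at CT6.5, CT7.36 and CT20.4. With this difference as a covariate 51 members had a 24 h component and 38 of them (74.5%) peaked from CT15 to CT22, and without the 8 pools 39 had one and 30 (76.9%) peaked there. Of genes of mean at least 1000, 70.4% were called with the covariate, 20.9% of them in that window, and 62.0% without the 8 pools, 18.8% of them in it. Of the called genes of mean under 100, 95.8% and 97.5% peaked there. Sdhd had an amplitude of 0.16 with the covariate and 0.12 without the 8 pools (adjusted p = 4.06e-05), Atp5g1 0.091 and 0.076, Ndufv2 0.14 and 0.13, and Ndufs4 0.16 in both. Without the 8 pools 35 of the 47 still passed, and the 12 that did not were Ndufa4, Ndufa8, Ndufab1, Ndufb6, Ndufb7, Sdhc, Cox4i1, Cox5b, Cox7c, Cox8a, Cox8c and Atp5g2, with adjusted p from 0.0563 (Cox4i1) to 0.427 (Cox7c). The part of RNA length in the 24 h components was not tested further.

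**Figure D4:**
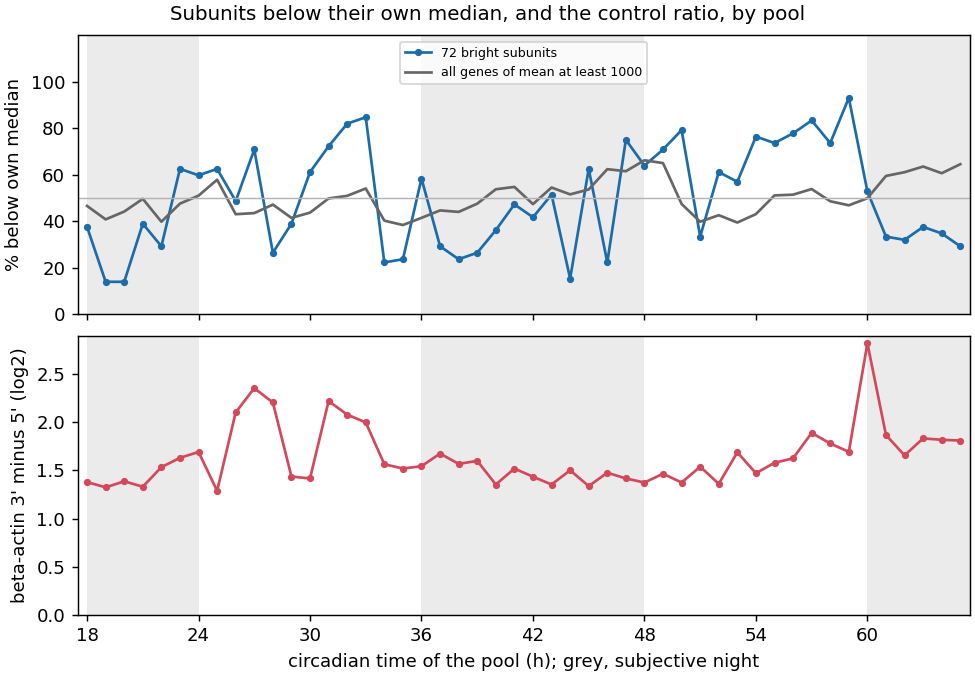
Upper panel, percentage of the 72 bright members (blue) and of all genes of mean at least 1000 (grey line) that were below their own median in each pool; lower panel, log2 difference of the 3' and 5' beta-actin control probe sets in the same pools. The members were lowest at CT33 (84.72%) and CT59 (93.06%), and the control difference was highest at CT60 (2.82).

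Shorter periods were rare. In the 12 h class both tests called 1 member, Atp5e (the epsilon subunit of ATP synthase; strongest Fourier period 48 h), beside 1.13% of all genes and 2.74% of genes of mean at least 1000, and in the 8 h class 0, beside 0.39% and 0.934%. Both tests also called Atp5pb with a period of 18.7 h and Ndufa8 with 5.6 h, outside the classes. By limma, 2 members had a 12 h component, beside 7.13% of all genes and 17.1% of bright genes: Cox7a2 (amplitude 0.11 ± 0.021, adjusted p = 0.00226) and Atp5md (0.082 ± 0.020, adjusted p = 0.0257). Both had their 12 h peaks at CT2.6 and 12 h later. Next in order were Atp5mpl (0.093 ± 0.026, adjusted p = 0.0708), Cox8a (0.087 ± 0.025, adjusted p = 0.075) and Ndufc2 (0.072 ± 0.021, adjusted p = 0.0846). An 8 h component passed in 1 member, Ndufs1 (0.077 ± 0.016, adjusted p = 0.0241), beside 2.13% of all genes and 5.14% of bright genes. It was followed by Ndufb6 (0.10 ± 0.026, adjusted p = 0.0823), Atp5c1 (0.068 ± 0.018, adjusted p = 0.0837) and Cox5a (0.079 ± 0.021, adjusted p = 0.0848), which did not pass. At an unadjusted p under 0.05 there were 25 members for 12 h (30.1%, beside 39.1% of genes of mean at least 1000) and 32 for 8 h (38.6%, beside 34.9%). With single pools left out, Cox7a2 and Ndufs1 passed each time and the adjusted p of Atp5md reached 0.0679.

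A second comparison asked whether levels shifted between the first cycle (CT18 to CT41) and the second (CT42 to CT65). By limma, 18 members were higher in the second cycle, beside 38.7% of all genes and 14.1% of genes of mean at least 1000, and 17 were lower, beside 17.4% and 37.3%. Among the bright members 14 were higher and 16 lower. Without the last 6 pools of each cycle 11 members were higher and 23 lower, beside 9.12% and 20.7% of genes of mean at least 1000. The arrays of CT61 to CT65 stood apart, with medians of 105.8 to 110.9 against 95.2 to 105.0 elsewhere and 75th percentiles of 797.1 to 839.5 against 891.3 to 1099.4, and their part in the shifts was not tested. Uqcrc1, a core subunit of complex III, fell most: its mean went from 36171 to 28536, a log2 difference of -0.36 ± 0.063 (adjusted p = 8.15e-05). Its values were 23580 or more in every pool before CT61 and 17975 to 23345 from CT61 to CT65. The gap was narrow, between 23345 at CT62 and 23580 at CT46. How many other genes separate in these arrays was not counted. With the last 6 pools of each cycle left out the difference of Uqcrc1 was -0.20 ± 0.049 (adjusted p = 0.00831). Ndufa8 differed by -0.21 ± 0.027 (adjusted p = 1.43e-06) and Ndufs3 by -0.19 ± 0.022 (adjusted p = 1.19e-07).

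Ndufb5, an accessory subunit of the membrane arm of complex I, rose most: its mean went from 71538 to 82858 (log2 difference 0.21 ± 0.027, adjusted p = 1.27e-06). Atp5pb, the stator b subunit of ATP synthase, rose by 0.14 ± 0.023 (adjusted p = 2.92e-05), and Uqcrc2, the partner of Uqcrc1 in the complex III core, by 0.14 ± 0.030 (adjusted p = 0.000221). Both rises rest on the main probe set. By limma the other bright probe set of Atp5pb differed by 0.00074 (adjusted p = 0.983) and that of Uqcrc2 by 0.037 (adjusted p = 0.164). The other bright probe set of Ndufb5 rose by 0.13 (adjusted p = 0.0083). Cox7a1, the muscle form, fell by 0.30 ± 0.13 on the log2 scale (adjusted p = 0.0432; 0.103 without the last 6 pools of each cycle), and Cox7c had a difference of -0.28 ± 0.12 (adjusted p = 0.0507). Since 1 series of 48 h was collected, a shift between the cycles cannot be told apart from a drift of the mice, the tissue handling or the arrays over the collection.

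Members lay far apart in the pool CT61. It was the highest pool of 27 of the 72 bright members (37.5%) and the lowest of 9 (12.5%), beside 12.8% and 20.8% of genes of mean at least 1000. The 9 lowest included Uqcrc1, Ndufv1, Sdha and Atp5a1, with log2 differences from their own medians of -0.84, -0.60, -0.55 and -0.40, and also Ndufa10 (-0.76), Atp5d, Ndufb10, Sdhc and Cox4i1. The 27 were led by Ndufs4 (0.75), Ndufb2 (0.56), Ndufc2 (0.51), Ndufb11 (0.49) and Atp5md (0.48), and also held Ndufv2 (0.45), Atp5c1 (0.39), Uqcrc2 (0.32) and Sdhb (0.27). The array of CT61 also had the lowest median correlation with the other arrays, 0.984.

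The 24 h component itself differed between the cycles in 14 members (16.9%), beside 6.04% of all genes and 14.6% of genes of mean at least 1000: Ndufa2, Ndufa10, Ndufa13, Ndufb5, Ndufb10, Ndufb11, Sdha, Uqcr11, Uqcrc1, Uqcrq, Atp5a1, Atp5b, Atp5k and Atp5pb. Sdha ranged from 53450 at CT61 through 78081 to 88177 at CT45, with a fitted peak at CT16.9 in the first cycle (amplitude 0.071) and at CT1.7 in the second (0.18; adjusted p of the difference = 0.00091). Atp5a1 ranged from 103880 at CT61 through 136640 to 154390 at CT18 and moved in the same way, from CT17.2 to CT1.7, and Ndufa10 from CT16.3 to CT1.0. Without CT61, 10 of the 14 still differed, and Ndufb10, Ndufb11, Uqcrq and Atp5k did not pass.

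Cox6a2 and Cox8b, muscle forms of complex IV subunits, were at the low end of the array's intensities except in 1 pool, in which Cox7a1 was also highest. Cox6a2 was 2130 at CT28 and 52.8 to 83.3 in the other 47 pools (median 54.4), Cox8b was 1413 against 77.4 to 118.2 (median 82.7), and Cox7a1 was 3731 against 387.0 to 1161 (median 736.1). At CT28 they were 39.15, 17.1 and 5.07 times the median of the other pools, and CT28 lay above every other pool for each of the 3. The paired liver forms stayed within their range there: Cox6a1 was 321600 at CT28 against 304700 to 371700 elsewhere, Cox7a2 was 236600 against 171000 to 264300, and Cox8a was 17110 against 11720 to 19090. Cox4i2, Cox6b2, Cox7b2, Cox8c and Ndufa4l2 were at or below 59.3 at CT28, within their own ranges.

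Transcripts that define skeletal muscle moved with them. At CT28 Myh1, a fast myosin heavy chain, was 14430 against a median of 71.1 in the other pools, Acta1 (skeletal actin) 12550 against 80.2, Tnnt3 5531 against 88.6 and Ckm (muscle creatine kinase) 2765 against 55.4. Over the 7 measured muscle markers the summed intensity was 35566 at CT28 and 542.7 to 692.6 elsewhere. 4 of the 7 were highest at CT28, while Actn3 was under 100 in every pool and Myh4 and Myh6 stayed at their usual values. Over all genes, 23 were more than 5 times as high at CT28 as in any other pool. The brown fat gene Ucp1 was 54.3 at CT28, within its range of 50.3 to 63.0, and the fat gene Adipoq 207 against at most 104.4. A share of muscle in this pool was not tested, and in bulk tissue more cells of a type and more RNA per cell cannot be told apart. Without CT28, Cox7a1 had a 24 h amplitude of 0.17 ± 0.058 (adjusted p = 0.0411; 0.606 with it) and Cox8b 0.060 ± 0.020 (adjusted p = 0.0413; 0.739 with it), and the log2 difference of Cox7a1 between the cycles was -0.20 ± 0.080. Cox8b was only 77.4 to 118.2 in those pools. Its fitted peak there, CT15.85, lay in the window that most called genes of mean under 100 shared.

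**Figure D5:**
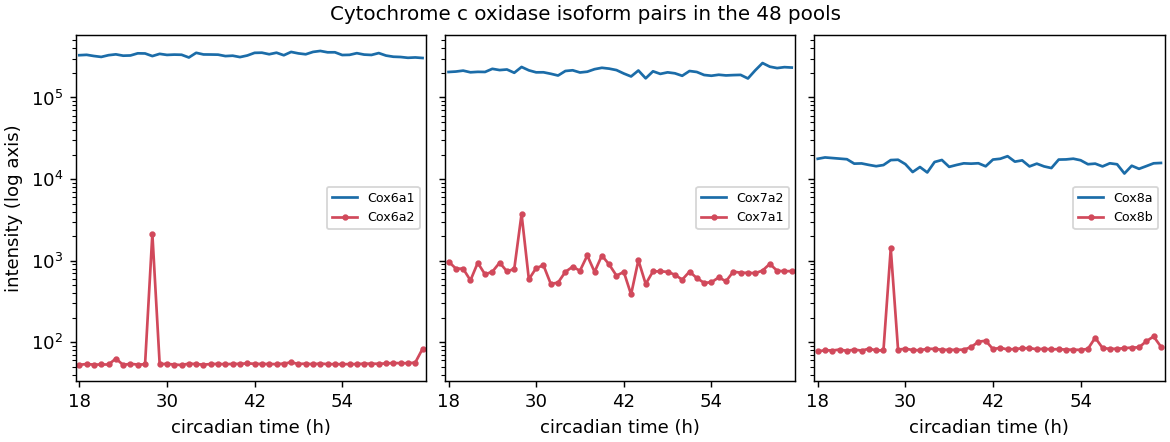
Intensity (log axis) of 3 complex IV subunits in the 48 pools against circadian time, with the form typical of liver in blue and the form typical of muscle in red. The red lines stand out only at CT28 (Cox6a2 2130, Cox7a1 3731 and Cox8b 1413), where the blue lines do not; the height of one line against another is not comparable between probe sets.

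Genes around the chain were read from lists of the pathway, beside 31.5% (both tests) and 69.7% (limma) of genes of mean at least 1000. Of 43 measured assembly factors and their like, 14 (32.6%) were called in the 24 h class by both tests and 25 (58.1%) had a 24 h component in limma, with a median amplitude of 0.13. Of these 25, 16 had their peak from CT15 to CT22, the window of most subunits. For the called electron carriers and feeders, TCA cycle genes and regulators described below, the counts in that window were 4 of 10, 4 of 5 and 1 of 8. Sco2, a copper chaperone for complex IV, ranged from 1939 at CT61 through 5980 to 10350 at CT27 and peaked at CT1.7 with an amplitude of 0.82 ± 0.045. Coa6, another factor of complex IV assembly, had 0.50 ± 0.040 at CT15.9 and Ndufaf4, a complex I assembly factor, 0.33 ± 0.041 at CT14.3. Between the cycles 9 of the 43 were higher and 8 lower, beside 14.1% and 37.3% of genes of mean at least 1000.

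Among 17 electron carriers and feeders of the chain, 8 (47.1%) were called in the 24 h class and 10 (58.8%) by limma. Cycs, cytochrome c, ranged from 166300 at CT27 through 218300 to 317900 at CT65, with an amplitude of 0.19 ± 0.025 and a peak at CT18.3, within the window of most subunits. Coq8a and Coq10b, which act in ubiquinone synthesis and function, had amplitudes of 1.01 ± 0.055 (CT1.2) and 1.27 ± 0.080 (CT12.2). Among the 12 measured TCA cycle genes beside succinate dehydrogenase 3 (25.0%) were in the 24 h class, Cs (citrate synthase, peak CT2.8), Fh1 (fumarase, CT15.2) and Idh3a (a subunit of isocitrate dehydrogenase, CT15.3), and 5 (41.7%) passed limma.

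Of 13 regulators of mitochondrial genes, 3 (23.1%) were in the 24 h class and 8 (61.5%) passed limma. Ppargc1b, a coactivator, had an amplitude of 1.01 ± 0.080 with a peak at CT8.0, Yy1 0.32 ± 0.037 at CT7.1 and Tfam, a mitochondrial DNA-packaging factor, 0.082 ± 0.020 at CT8.8. Gabpa was in the 12 h class, with an adjusted p of 9.58e-06 for its 12 h component, and Nrf1 had a 24 h amplitude of 0.075 (adjusted p = 0.238). Of 3 measured genes for uncoupling and inhibition, 1 (Ucp3, under 100 in every pool) passed limma and Atpif1, the inhibitor of ATP synthase, had an amplitude of 0.036 (adjusted p = 0.633). Transcripts of the factors were measured here, not their activity or binding.

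Where a gene had another bright probe set that probe set gave a further reading from the same arrays. There were 58 such probe sets for 40 of the members. Of 36 whose gene was called at 24 h by its main probe set, 26 were called too, all 26 with peaks within 4 h, and the rest of the 36 were not called. Among the remaining other probe sets, whose gene was not called by its main one, 10 were called. All 10 that were called for a shift between the cycles in both shifted in the same direction. The other bright probe sets of Atp5pb and Uqcrc2 were not called for a shift. Of the 83 main probe sets, 16 carry a suffix for probes that may match several transcripts (5 with _x_at and 11 with _s_at).

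Series-wide facts that touch these values were few. Each array correlated with the others at a median r of 0.984 or more over probe sets. The hepatocyte markers Alb, Apoa1, Fgb and Ttr had a summed intensity of 2783700 to 3084800, so the defining transcripts of liver were high in every pool. The number of arrays limits the precision of every amplitude, and depth in the sense of read counts does not apply.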

How the data were processed

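Hourly liver pools from CT18 to CT65 were each measured on 1 array, and the pools were treated as 1 group. The authors state that the array data were extracted with GCRMA in R and that MAS5 gave the present or absent calls. The submitters' processing notes name MAS5, and its role for these values is not stated there. The deposited intensities were treated as GCRMA values on a linear scale. Intensities were taken to log2 with no further scaling and no pseudocount, since the lowest was 20.6. All columns were mapped to a pool by their labels (0 left unmapped). Of 45101 probe sets, 34958 had 1 gene symbol in the platform annotation, 932 had several and 9211 had none; the probe set of highest mean stood for each gene. No value for read depth exists for arrays, and with 1 array per hour the number of pools limits the precision.

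Fisher's exact G-test (23 Fourier frequencies) and a cosine fit (trial periods 0.1 h apart between 4 and 30 h, p from 1000 scramblings of the pools) were turned into Storey q-values over all probe sets, and a gene was called where both were under 0.05. The 24, 12 and 8 h components, the difference between cycles (CT42 to CT65 minus CT18 to CT41) and the change of the 24 h component between cycles were tested with limma (moderated F and t statistics, adjusted by Benjamini-Hochberg over all probe sets). Means of a complex were fitted by least squares. R 4.3.3, limma 3.58.1, Python 3.11.15, numpy 2.4.6, pandas 2.3.3 and matplotlib 3.10.9 were used, and the tests were tried on simulated data first.

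The members, lists and tests were chosen with earlier results of these data known. Named genes were the members of smallest p for each component (also within each complex), all members called by both tests, those with the largest shifts between cycles or a changed 24 h component, core subunits and isoform pairs; others were named after their values were seen. Tried alternatives were linear intensities, quantile normalization, the mean of all probe sets of a gene, other adjustments, no trend, single cycles, and leaving out single pools or the last 6. The control-ratio settings, the averages of bright members, the clock hour as a block and the fits without CT28 or CT61 were added after seeing the data. The peak window from CT15 to CT22 was not among the planned tests.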

Additional observations from a re-analysis of the deposited data

Results flagged for a closer look

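In 14 of the 83 members the 24 h component differed between the first and the second cycle by the interaction test of limma (adjusted p over all probe sets). It also differed in 6.04% of all genes and in 14.6% of genes of mean at least 1000. In complex I the values were 0.000632 for Ndufa10, 0.0107 for Ndufa2, 0.0218 for Ndufa13, 0.033 for Ndufb11, 0.0348 for Ndufb10 and 0.0392 for Ndufb5. In complexes II and III they were 0.00091 for Sdha, 0.0155 for Uqcr11, 0.0163 for Uqcrc1 and 0.024 for Uqcrq. In ATP synthase they were 0.000831 for Atp5a1, 0.00134 for Atp5pb, 0.0165 for Atp5b and 0.0411 for Atp5k. Ndufa10, Sdha, Uqcrc1, Atp5a1 and Atp5b had fitted peaks between CT16.3 and CT17.2 in the first cycle and between CT0.7 and CT2.8 in the second. Ndufa13, Ndufa2, Ndufb11 and Atp5k had theirs between CT1.3 and CT5.5 in the first cycle and between CT13.6 and CT16.0 in the second. Without CT61 the adjusted p was 0.0781 for Ndufb10, 0.061 for Ndufb11, 0.0557 for Uqcrq and 0.0805 for Atp5k, and the other 10 still passed. CT60 and CT62 to CT65 stayed in that fit.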

How the results depend on the processing

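Replicate numbers only follow the order of the pools and gave no pairing. With the clock hour as a block, which pairs each hour of the first cycle with the same hour of the second, 15 members were higher and 16 lower in the second cycle, beside 18 and 17. With this block 12.8% of genes of mean at least 1000 were higher and 34.5% lower. Both tests called 10 members in the 24 h class, but 20 from the mean of all probe sets of a gene (8 of the 10 among them) and 4 after Benjamini-Hochberg adjustment, which left 0 in the 12 h and 8 h classes. Without CT60 to CT65 both tests called 9 members in the 24 h class, and only 4 of these were among the 10. The limma 24 h count of 47 was 28 without CT60 to CT65, 6 in the first cycle alone and 41 in the second alone (29 of the 47 among them); with each pool left out in turn it ranged from 42 (without CT27) to 51 (without CT28), and 39 members passed each time. Of genes of mean at least 1000, limma called 69.7% over all pools and 61.3% without CT60 to CT65. In the first and second cycles alone it called 25.1% and 56.5% of them. The 12 h count of 2 became 5 with quantile normalization, 5 with no trend, 1 without CT60 to CT65, 0 and 4 in the cycles alone and 1 without the 8 pools of highest control ratio, and ranged from 1 (without CT26) to 5 (without CT50) with single pools left out. The 8 h count of 1 became 0 with quantile normalization, 2 from the mean of all probe sets, 0 and 0 in the cycles alone, 5 with the control ratio as a covariate and 0 without the 8 pools, and ranged from 1 to 6 (without CT45). The 18 members higher and 17 lower in the second cycle became 11 and 23 without CT36 to CT41 and CT60 to CT65, beside 9.12% and 20.7% of genes of mean at least 1000. The mean amplitude of complex I was 0.0295 without CT60 to CT65 and 0.031 and 0.0617 in the cycles alone; of complex II 0.13 and 0.0466 in the cycles and 0.0384 without the 8 pools; of complex III 0.0566 in the first cycle and 0.0547 from the mean of all probe sets; of complex IV 0.111 on linear intensities; and of complex V 0.0452 without CT60 to CT65 and 0.0436 from the mean of all probe sets. For the other settings no share over all genes is given here. A change in the members' counts can there not be told apart from a change in all genes. The causes were not tested. With 1 array per hour, small amplitudes are limited by the spread of the pools.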
